A study of Rattus norvegicus with 10 samples.

Results

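The genes described here encode adrenergic receptors, the receptors of noradrenaline and adrenaline, in the left hippocampus of male TgF344-AD rats. The 7 members are Adra1a, Adra1b and Adra1d (alpha-1), Adra2a, Adra2b and Adra2c (alpha-2) and Adrb1 (beta-1), matched by exact symbol among the 13686 gene symbols of the count table. Each had a single line there, and 6 of the 7 passed the filter on low counts that 11771 genes in all passed. Adra2b did not. Both groups were transgenic males of this Alzheimer disease model, sampled at 11 months of age, with 5 animals each and 1 library per animal. Untreated rats ate rodent chow. BT-11 rats ate chow with BT-11, a ligand of the LANCL2 protein, from 5 months of age for 6 months. All 10 animals were anaesthetized with 100 mg/kg ketamine and 10 mg/kg xylazine. Xylazine is itself an agonist of alpha-2 receptors, and since every animal received it, its bearing on the levels below was not tested. There was no wild-type group in the samples used here, so nothing below compares transgenic with other rats.

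Noradrenaline reaches the hippocampus through axons of the locus coeruleus in the brainstem, so the receptors are made by hippocampal cells and the enzymes that make the transmitter are made elsewhere. Alpha-1 receptors couple to Gq proteins and phospholipase C, alpha-2 receptors to Gi and Go proteins, which restrain adenylyl cyclase and open potassium channels, and beta receptors to Gs, which stimulates adenylyl cyclase. Alpha-2 receptors also sit on noradrenergic terminals, where they limit release, but their mRNA there is held in the brainstem cell bodies and not in the hippocampus.

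The libraries held 8984439 to 11301545 estimated counts. Levels are given in CPM, counts scaled to the library total. The 7 receptor genes together took 120.4 to 166.5 CPM of a library, with a mean of 151.0 ± 13.4 without and 138.1 ± 13.0 with BT-11 (5 libraries per group, SD), and the groups overlapped. Hippocampal neuron markers were detected in every library, among them Prox1 of dentate granule cells at 21.6 to 92.3 CPM. Untreated replicates 2 and 5 held summed choroid plexus marker levels of 3727 and 718 CPM, while the remaining 8 held 6.87 to 67.3 CPM. BT-11 replicates 2 and 4 stood apart in another set of genes, which is given with Adra2b. Replicate numbers 4 and 5 were set apart from 1 to 3 in an earlier look at these data, and values within each set are given below. The labels name no batch and nothing about where the tissue was cut. In whole tissue, fewer cells of a type and less RNA per cell cannot be told apart.

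Per kilobase of the gene model in the table, Adra1d was the highest of the 7, at 33.8 ± 5.71 CPM per kilobase over all 10 libraries (SD). It was followed by Adra2c at 13.9 ± 2.30, Adra2a at 4.07 ± 1.75, Adrb1 at 4.05 ± 0.766, Adra1a at 1.42 ± 0.649, Adra1b at 0.706 ± 0.287 and Adra2b at 0.162 ± 0.213. The ranges of Adra1d and Adra2c did not overlap each other or those of the genes below them. Adra2a and Adrb1 could not be ordered, since Adra2a was the higher of the pair in 6 of 10 libraries. Adrb1 lay above Adra1a in every library, with no overlap of ranges. Adra1a lay above Adra1b, and Adra1b above Adra2b, in 9 of 10 libraries each, with overlapping ranges. These levels rest on the gene models: that of Adrb1 is 1401 bases long, where the RefSeq gene spans 3012 bases on build GRCr8, so reads from the rest of its mRNA may not have been counted. The same may hold for Adra2c, Adra1a and Adra1b, whose models span 1704, 93047 and 57883 bases, where the RefSeq genes span 1963, 105769 and 118371. For Adra1d, Adra2a and Adra2b the spans were about equal.

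**Figure D1:**
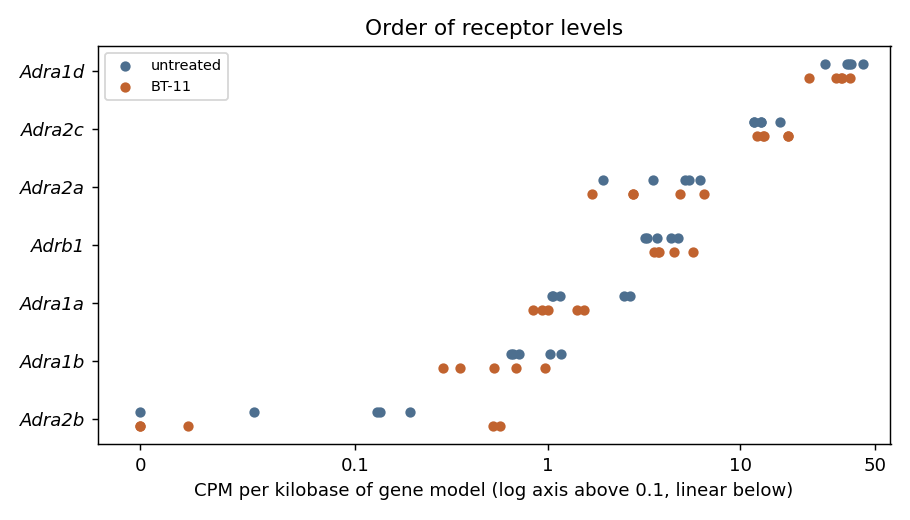
Level of each receptor gene in CPM per kilobase of gene model, on an axis that is logarithmic above 0.1 and linear below, with 1 point per library (untreated blue, BT-11 orange). Adra1d lies between 22.6 and 43.2, above all others, while the points of Adra2a spread from 1.69 to 6.48 around those of Adrb1.

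Adra1d thus supplied most of the receptor reads in every library, from 55.2% to 76.4% of the summed counts of the 7 genes. The mean share of Adra1d was 69.9% ± 5.32 in untreated rats and 66.8% ± 6.90 with BT-11 (5 libraries per group, SD). The lowest share was in BT-11 replicate 2, where Adra2a reached 15.1% and Adrb1 6.58%, the highest shares of both. The alpha-2 genes together made up 23.4% ± 3.48 and 26.6% ± 5.39. Adra2c had 14.8% ± 2.69 in untreated rats and 18.1% ± 2.13 with BT-11, with overlapping ranges. These are shares of reads, not of receptor molecules, and longer gene models collect more reads.

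**Figure D2:**
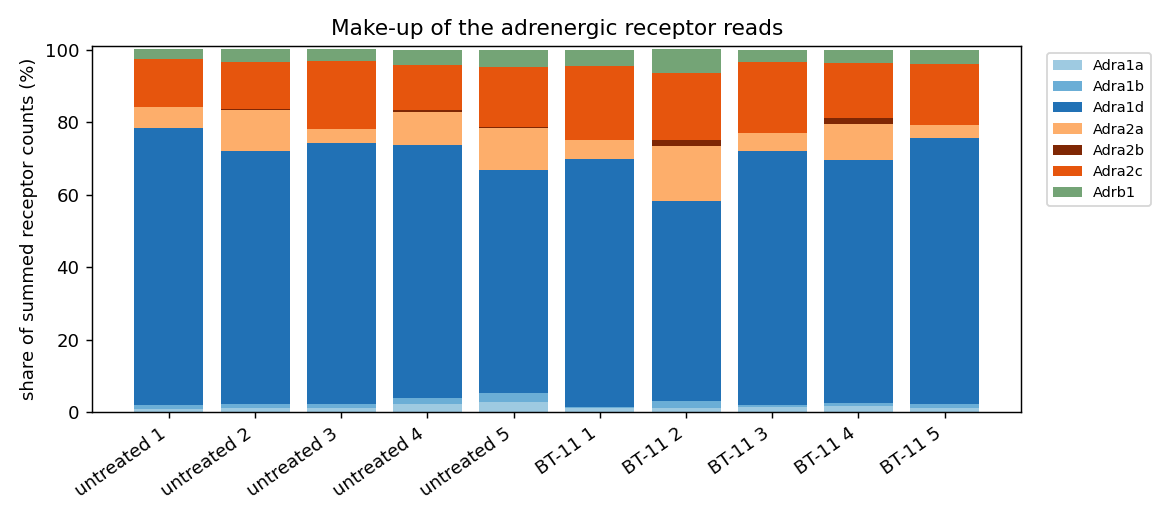
Stacked shares (percent) of the 7 genes in the summed adrenergic receptor counts, 1 bar per library. Adra1d fills 55.2% to 76.4% of each bar, and the shortest Adra1d segment is that of BT-11 replicate 2.

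In the comparison that the design states, BT-11 against untreated, no receptor gene changed by edgeR's quasi-likelihood test across all genes. Of the 6 tested, 0 had an adjusted p under 0.05, where 0% of all 11771 genes did, and 0 had an unadjusted p under 0.05, where 9.09% of all genes did. For all 6 the groups overlapped in CPM, as they did for all but 1.12% of the genes tested. The log2 fold changes were below 0 for Adra1a, Adra1b, Adra1d and Adra2a and above 0 for Adra2c and Adrb1, beside 51.8% of all genes below 0 and 48.2% above. DESeq2 called 36 genes over the whole table, and none of the 6 receptors was among them, with adjusted p from 0.659 to 0.914.

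**Figure D3:**
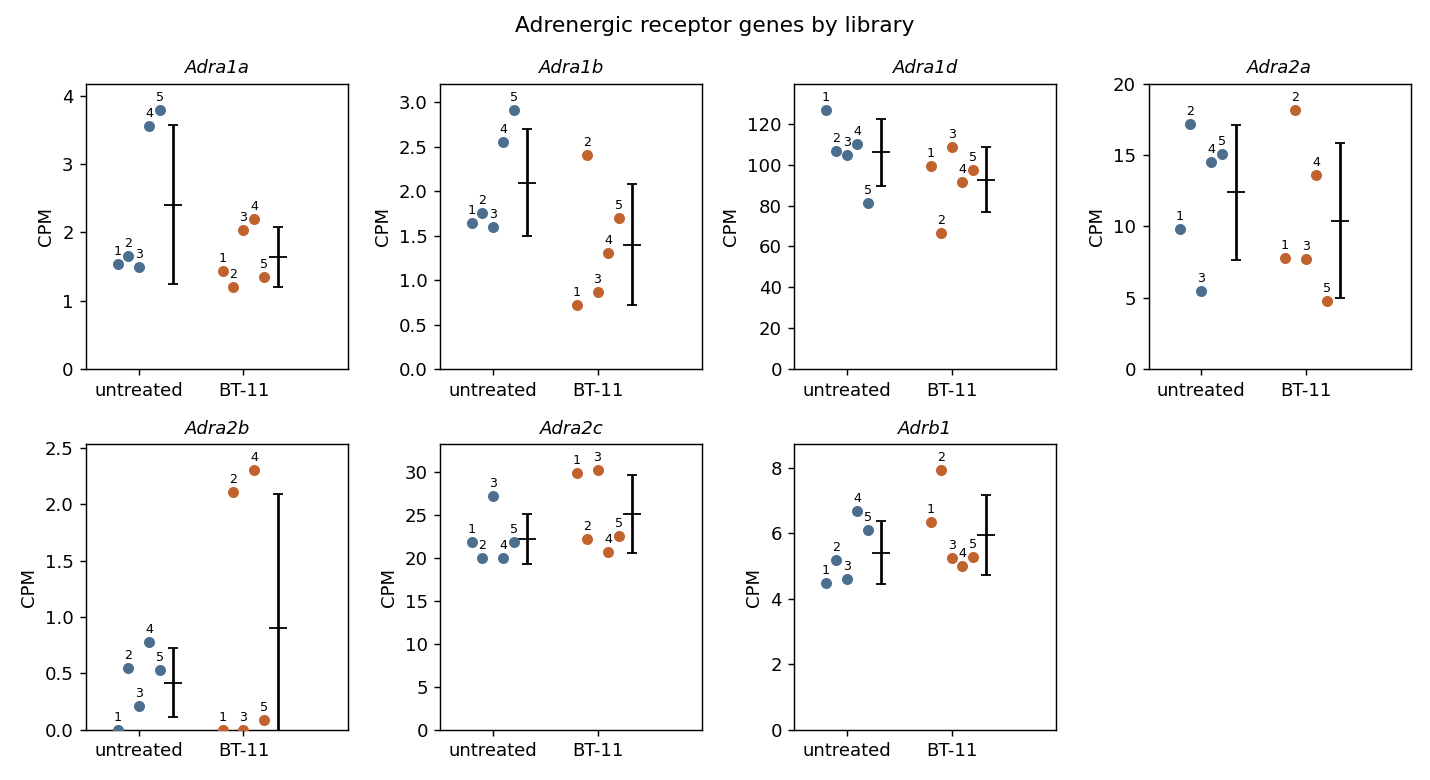
CPM of each receptor gene in the 10 libraries, with the replicate number at each point and the group mean ± SD in black beside it (untreated blue, BT-11 orange, each axis from 0). The groups overlap for all 7 genes, and the 2 high points of Adra2b are BT-11 replicates 2 and 4.

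Among the alpha-1 receptors, the log2 fold change of Adra1d was -0.20 ± 0.143 (SE), with a 95% interval from -0.51 to 0.11 and an adjusted p of 0.692 in edgeR. Adra1d, known in rodents for a part in the contraction of blood vessels and for its strong expression in the rat hippocampus, lies on chromosome 3, 124129559 to 124145567, minus strand (build rn6). It held 127, 107, 105, 110.4 and 81.2 CPM in untreated replicates 1 to 5, and 99.4, 66.4, 109, 91.6 and 97.4 CPM in BT-11 replicates 1 to 5. The lowest 2 libraries were BT-11 replicate 2 and untreated replicate 5, 1 from each group. BT-11 replicate 2 was also the lowest library in the summed level of 8 pan-neuronal markers, at 5810 CPM against 6999 to 9098 CPM in the others. Not all 8 shared this. Rbfox3 was at 144.5 CPM there, above the 112 to 135.4 CPM of the untreated libraries. Tubb3 was lowest in BT-11 replicate 5, at 320 CPM, beside 323.5 CPM in BT-11 replicate 2. The part of these markers in the Adra1d result was not tested. Without BT-11 replicates 2 and 4 the Adra1d value was -0.06 ± 0.131. Within replicate numbers 1 to 3 it was -0.31 ± 0.191, and within numbers 4 and 5 it was -0.01 ± 0.150.

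Adra1a and Adra1b were both scarce and had the lowest fold changes of the family, but with wide intervals. Adra1a (chromosome 15, 43299386 to 43392432, plus strand) is the alpha-1 subtype best known from smooth muscle. It was at 1.53, 1.65, 1.50, 3.56 and 3.80 CPM in untreated replicates 1 to 5 and at 1.43, 1.20, 2.03, 2.20 and 1.34 CPM in BT-11 replicates 1 to 5. Untreated replicates 4 and 5 held more than every other library, while the other 3 untreated libraries lay within the BT-11 range. The log2 fold change was -0.58 ± 0.324 (SE), with a 95% interval from -1.28 to 0.13 and an adjusted p of 0.625 in edgeR. It was -0.01 ± 0.324 within replicate numbers 1 to 3, where 3 animals of each group remain, and -1.06 ± 0.332 within numbers 4 and 5, where 2 remain (adjusted p of 0.123 in edgeR). Whether the sets of numbers differ was not tested.

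Adra1b (chromosome 10, 29392763 to 29450645, minus strand), another Gq-coupled receptor, rested on 8 to 33 counts per library. It was at 1.64, 1.76, 1.60, 2.56 and 2.92 CPM in untreated replicates 1 to 5. The BT-11 replicates held 0.714, 2.41, 0.871, 1.30 and 1.70 CPM. BT-11 replicates 1, 3 and 4 were lower than every untreated library, whereas BT-11 replicates 2 and 5 lay among them. The log2 fold change of -0.61 ± 0.322 (SE), with a 95% interval from -1.31 to 0.09, had an adjusted p of 0.606 in edgeR. It was -0.35 ± 0.459 in numbers 1 to 3, -0.86 ± 0.340 in numbers 4 and 5, and -0.93 ± 0.354 without BT-11 replicates 2 and 4 (adjusted p of 0.802 in edgeR). At these depths, counting alone gives a coefficient of variation of 22.1% for Adra1a and 23.9% for Adra1b, against 48.5% and 28.8% found between untreated libraries and 27.1% and 48.8% between BT-11 libraries.

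**Figure D4:**
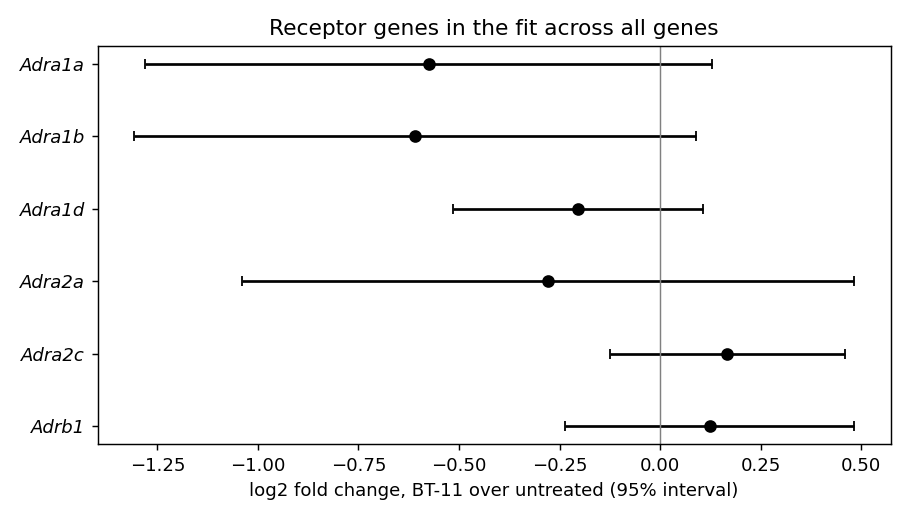
Log2 fold change of the 6 tested receptor genes, BT-11 over untreated, from the edgeR fit across all genes, with 95% intervals as bars and a line at 0. All 6 intervals include 0, and those of Adra1a, Adra1b and Adra2a are the widest.

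None of the alpha-2 genes separated the groups, and Adra2a and Adra2b ranged widely between animals of the same group. Adra2a, the main alpha-2 subtype of the brain and the one known to carry the sedation that agonists such as xylazine produce, lies on chromosome 1, 274766284 to 274769084, plus strand (rn6). It was at 9.81, 17.2, 5.45, 14.5 and 15.1 CPM in untreated replicates 1 to 5. In BT-11 replicates 1 to 5 it was at 7.76, 18.2, 7.74, 13.6 and 4.74 CPM. Libraries of both groups were high (BT-11 replicates 2 and 4, untreated replicates 2, 4 and 5) and libraries of both groups were low (untreated replicate 3 and BT-11 replicates 1, 3 and 5), over a 3.83-fold range.

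Within groups the coefficient of variation of Adra2a was 38.1% in untreated and 51.9% in BT-11 rats, where counting alone gives 9.39% and the median over all genes tested was 13.4% and 10.2%. Its log2 fold change was -0.28 ± 0.350 (SE), with a 95% interval from -1.04 to 0.48 and an adjusted p of 0.838 in edgeR. The direction did not hold: it was 0.04 ± 0.473 within replicate numbers 1 to 3, -0.71 ± 0.533 within numbers 4 and 5, and 0.04 ± 0.419 without untreated replicates 2 and 5. Without BT-11 replicates 2 and 4 it was -0.88 ± 0.335 (adjusted p of 0.802 in edgeR).

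Beside this, the summed level of 4 dentate granule cell markers (Prox1, C1ql2, Plk5 and Stxbp6) was 235 to 267 CPM in the 4 libraries with the least Adra2a and 89.7 to 187 CPM in 5 of the other 6. The exception was BT-11 replicate 2, with 260 CPM of these markers and the most Adra2a. Over all 5 libraries of a group the sum ran from 89.7 to 260 CPM in untreated and from 168 to 267 CPM in BT-11 rats. None of the 4 markers was at 0 in any library, and 2 other markers of the list were not in the table. The summed level of 5 CA1 pyramidal neuron markers split in a like way. It was 786 to 1235 CPM in the 4 libraries with the least Adra2a and 465 to 623 CPM in 5 of the other 6. The exception there was BT-11 replicate 4, with 1007 CPM. Marker lists are given beside results that they moved with, so both lists were picked for this pattern. The dentate list is given again with Slc29a4 and with Trpc6, Kcnj6 and Kcnj3. The part of these differences in Adra2a was not tested.

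Adra2c, known in rodents from the striatum and hippocampus, lies on chromosome 14, 80730308 to 80732011, minus strand (rn6). It was at 21.9, 20.0, 27.2, 20.0 and 21.9 CPM in untreated replicates 1 to 5. BT-11 replicates 1 to 5 held 29.9, 22.2, 30.2, 20.7 and 22.5 CPM. BT-11 replicates 1 and 3 were the highest of all, untreated replicate 3 stood next, and the other 7 libraries lay between 20.0 and 22.5 CPM. The log2 fold change was 0.17 ± 0.134 (SE), with a 95% interval from -0.12 to 0.46 and an adjusted p of 0.734 in edgeR. Within replicate numbers 1 to 3 it was 0.24 ± 0.165 and within numbers 4 and 5 it was 0.05 ± 0.118. The 3 libraries highest in Adra2c were all among the 4 libraries lowest in Adra2a, and the ratio of Adra2c to Adra2a CPM ran from 1.17 in untreated replicate 2 to 4.98 in untreated replicate 3, both within 1 group.

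Adra2b was close to the detection limit in most animals and clearly present in BT-11 replicates 2 and 4. This receptor, known in rat brain from the thalamus, lies on chromosome 3, 119805942 to 119809988, plus strand (rn6). It had 0, 5, 2, 7 and 6 counts in untreated replicates 1 to 5 and 0, 21, 0, 23 and 1 counts in BT-11 replicates 1 to 5. In CPM, BT-11 replicates 2 and 4 held 2.11 and 2.30, and the highest of the other 8 libraries held 0.779. A count of 0 allows up to 0.327 CPM in untreated replicate 1, 0.268 in BT-11 replicate 1 and 0.290 in BT-11 replicate 3, for counting error only. The group means were 0.415 ± 0.307 CPM in untreated rats and 0.899 ± 1.19 CPM with BT-11 (5 libraries per group, SD), a difference of 0.485 that turned to -0.385 without BT-11 replicates 2 and 4. The gene did not pass the filter on low counts. Fitted without that filter, its log2 fold change was 1.03 ± 1.06 (SE), with a 95% interval from -1.28 to 3.35 and an adjusted p of 0.806 in edgeR.

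The same libraries were the highest for 2 of 6 thalamic markers. Prkcd, a protein kinase C gene, was at 117 and 61.1 CPM in BT-11 replicates 2 and 4 and at most 13.4 CPM elsewhere. Zic1, a zinc finger transcription factor gene, was at 66.9 and 32.1 CPM there and at most 5.54 CPM elsewhere. The other 4 thalamic markers in the table did not share this: Tcf7l2, Slc17a6, Plekhg1 and Lef1 each had their highest library elsewhere. As a sum the thalamic list ran from 74.5 to 97.6 CPM in untreated and from 72.6 to 243 CPM in BT-11 rats, with no marker at 0. BT-11 replicates 2 and 4 were also the highest for 3 of 10 interneuron markers, Gad1, Gad2 and Slc32a1, which serve GABA synthesis and vesicle loading. Slc32a1 was at 133 and 90.1 CPM there and at most 61.1 CPM elsewhere. The rest of that list did not share this: Pvalb, Vip and Cck, which mark interneuron classes, were at their lowest in BT-11 replicate 2, at 26.2, 4.92 and 66.9 CPM, and Sst, Npy, Lhx6 and Reln each had their highest library elsewhere. As a sum the interneuron list ran from 646 to 853 CPM in untreated and from 560 to 894 CPM in BT-11 rats, with no marker at 0. Of 7 striatal markers, all 7 were highest in BT-11 replicate 2, with a sum of 288 CPM there against 150.1 to 191 CPM in the others. BT-11 replicate 2 was also the highest library for 6 of 7 pericyte and smooth muscle markers. Of all genes tested, 474, or 4.03%, had these libraries as their 2 highest. What part such genes have in the Adra2b level was not tested.

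**Figure D5:**
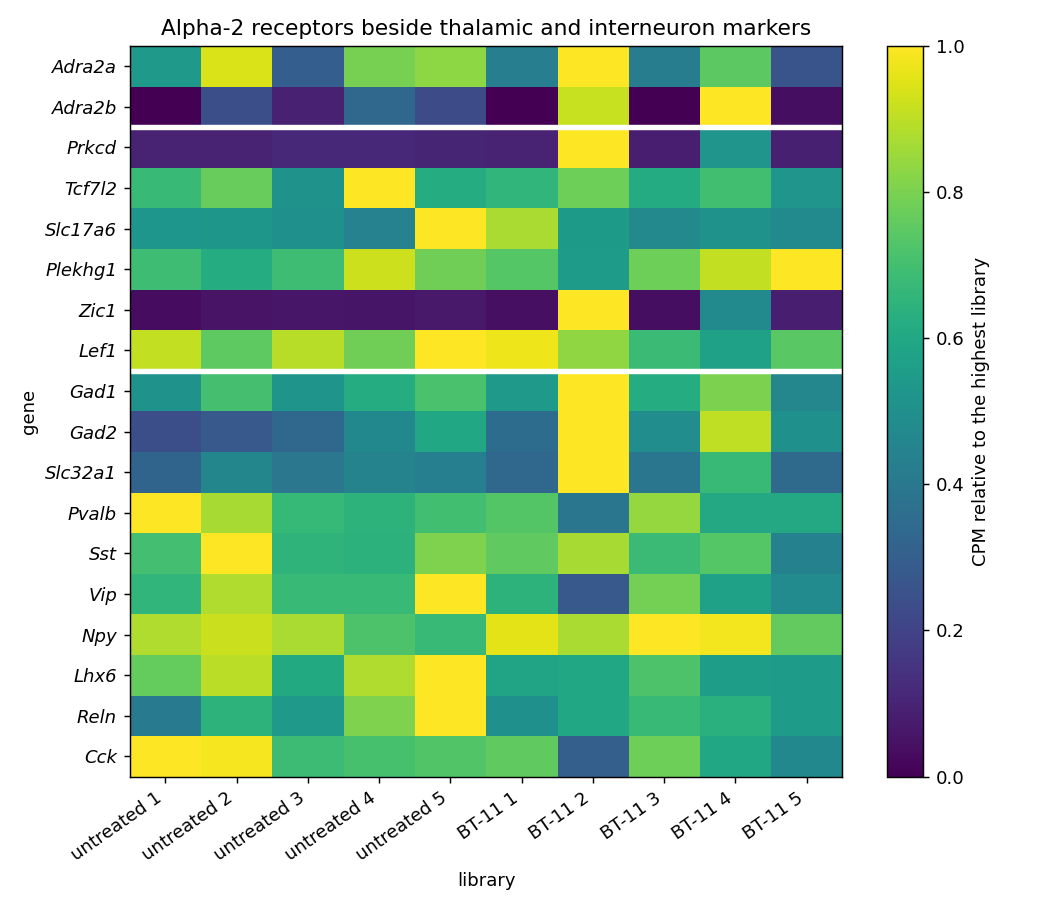
Level of Adra2a and Adra2b and, below white lines, of all 6 thalamic and 10 interneuron markers in each library, as CPM relative to the highest library of that gene (colour from 0 to 1). Adra2b, Prkcd, Zic1, Gad1, Gad2 and Slc32a1 are brightest in BT-11 replicates 2 and 4, while the other 4 thalamic and 7 interneuron markers are not, and Pvalb, Vip and Cck are darkest in BT-11 replicate 2.

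The 3 alpha-2 genes also differ in the sequence before their start. Of the 7 members, 6 matched RefSeq's promoter table (build GRCr8), and Adra1a did not. The 250 bases before the start are shown for the alpha-2 genes, since Adra2a and Adra2b shared high libraries that Adra2c did not. Capitals mark a GC box, GGGCGG on either strand. The windows are chr1:263066530-263066779 (plus strand) for Adra2a, chr3:135038231-135038480 (plus strand) for Adra2b and chr14:79697477-79697726 (minus strand) for Adra2c.
Adra2a: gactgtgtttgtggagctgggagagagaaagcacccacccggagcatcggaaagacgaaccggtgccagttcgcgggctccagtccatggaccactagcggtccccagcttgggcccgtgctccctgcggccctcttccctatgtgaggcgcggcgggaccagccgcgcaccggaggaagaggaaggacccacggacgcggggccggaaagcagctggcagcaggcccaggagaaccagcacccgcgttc
Adra2b: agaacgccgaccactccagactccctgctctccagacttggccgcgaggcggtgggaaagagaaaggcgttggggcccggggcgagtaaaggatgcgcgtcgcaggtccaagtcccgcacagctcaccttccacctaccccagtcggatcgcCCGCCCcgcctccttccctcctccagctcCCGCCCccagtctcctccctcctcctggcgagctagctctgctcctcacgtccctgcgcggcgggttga
Adra2c: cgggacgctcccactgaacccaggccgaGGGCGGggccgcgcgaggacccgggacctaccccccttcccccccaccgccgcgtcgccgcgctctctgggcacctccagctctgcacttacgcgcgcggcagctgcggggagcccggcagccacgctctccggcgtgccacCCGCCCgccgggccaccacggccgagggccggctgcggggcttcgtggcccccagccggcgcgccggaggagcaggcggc
Adra2b and Adra2c each held 2 GC boxes and Adra2a none, where 30.5% of all 33469 promoter windows of this length held at least 1. The cyclic AMP response core TGACG was in none of the 3 but occurred once in the Adrb1 window, against 18.2% of all windows with at least 1. TATAAA was in none of the 6 matched windows, against 12.9% of all. The 6 windows were 64.0% to 80.4% G and C, with a median over all windows of 51.2%, and Adra2c was the richest. The motifs were searched on both strands, and they do not overlap each other in these windows. These are matches of letters, not binding sites.

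Adrb1, the beta-1 receptor, known for driving the heart rate and also present in the forebrain, lies on chromosome 1, 277537586 to 277538986, plus strand (rn6). It was at 4.47, 5.17, 4.60, 6.68 and 6.11 CPM in untreated replicates 1 to 5 and at 6.33, 7.92, 5.23, 5.00 and 5.27 CPM in BT-11 replicates 1 to 5. BT-11 replicate 2 was the highest library, and 4 of the 5 BT-11 libraries lay inside the untreated range. The log2 fold change was 0.12 ± 0.165 (SE), with a 95% interval from -0.24 to 0.48 and an adjusted p of 0.852 in edgeR. It was 0.44 ± 0.202 within replicate numbers 1 to 3 and -0.31 ± 0.203 within numbers 4 and 5, so its direction differed between these sets, a difference that was not tested. Other beta receptors were not analysed here.

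Across the 10 libraries no pair of receptor genes passed an adjusted test of correlation. Over 15 pairs of the 6 tested genes, the lowest Benjamini-Hochberg adjusted permutation p was 0.176 for Pearson's r. Adra1b and Adra2c had r = -0.746 (permutation p = 0.0159, adjusted 0.176) and rho = -0.661 (permutation p = 0.0434, adjusted 0.335), and r fell to -0.195 without BT-11 replicates 1 and 3, so the relation rested on those libraries. For Adra2a and Adra2c, r was -0.626 (permutation p = 0.0567, adjusted 0.284) and rho -0.648 (permutation p = 0.0481, adjusted 0.335), with r = -0.843 without untreated replicate 3 and BT-11 replicate 5. Adra1d and Adrb1 had r = -0.703 (permutation p = 0.0235, adjusted 0.176) and rho = -0.418 (permutation p = 0.235, adjusted 0.570), with r = -0.235 without untreated replicate 5 and BT-11 replicate 2.

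The genes most like each receptor over the 10 libraries were named by Pearson's r of log2 CPM among 11510 genes. This is a description in which all points share library depth and tissue make-up. Picking the highest r of so many genes favours high values and shared extreme libraries. For Adra1d they included Xpnpep1 (r = 0.971) and Nsmf (0.940). Xpnpep1, an aminopeptidase gene, was at 83.2 CPM in BT-11 replicate 2, its lowest library and that of Adra1d. For Adra1a they included Shank2 (0.966) and Pitpna (0.960). Shank2, a postsynaptic scaffold gene, was at 346 and 358 CPM in untreated replicates 4 and 5 and at most 298.5 CPM elsewhere, the same libraries in which Adra1a was high. Adra2a was most like Rftn1 (0.963), Tcerg1l (0.957) and Samd14 (0.948), and Rftn1 ran from 5.18 CPM in BT-11 replicate 5 to 13.8 CPM in BT-11 replicate 2, the lowest and highest libraries of Adra2a. Adra2c was most like Ints14 (0.908), Dusp6 (0.866) and Tpm2 (0.850), and Adrb1 most like Eif4h (0.938), Lpar6 (0.910) and Ece2 (0.900). Dusp6, a phosphatase that acts on the ERK kinases, was at 61.4 and 58.4 CPM in BT-11 replicates 1 and 3, the highest libraries of Adra2c.

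The genes around the receptors were taken from 6 lists of the noradrenaline pathway. Of 79 tested genes in these lists, 0 passed the test over all genes, 41 were higher and 38 lower, and 9, or 11.4%, had an unadjusted p under 0.05, beside 9.09% of all genes. The median log2 fold change over the 79 was 0.02, and -0.01 over all genes. Without BT-11 replicates 2 and 4, 5 of the 79, or 6.33%, had an unadjusted p under 0.05, beside 6.12% of the 11873 genes tested in that fit, and 0 passed.

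On the supply side, Th, the rate-limiting enzyme of noradrenaline synthesis, had at most 11 counts in a library and Dbh, which makes noradrenaline from dopamine, at most 6, so neither was tested. The breakdown enzymes were well detected, with Maob at 97.9 to 120 CPM. Of 6 tested genes of synthesis, storage, uptake and breakdown, 3 were higher and 3 lower, with a median of -0.0036. Of the 6, 1, or 16.7%, had an unadjusted p under 0.05, beside 9.09% of all genes. Slc29a4, a low-affinity monoamine transporter, averaged 12.7 CPM without and 20.8 CPM with BT-11, which gave 0.70 ± 0.171 (log2 fold change and SE), an unadjusted p of 0.00142 and an adjusted p of 0.402 in edgeR. Its BT-11 libraries held 16.4 to 26.5 CPM, and of the untreated ones only replicate 3, at 18.8 CPM, overlapped them. The value was 0.68 ± 0.182 without BT-11 replicates 2 and 4. Untreated replicate 3 also held the highest dentate granule cell marker sum of its group, 260 CPM against 89.7 to 187 CPM in the others. BT-11 rats held 168 to 267 CPM, and BT-11 replicate 4 was the lowest of that group in both this sum and Slc29a4. This list was picked after the values were seen, and its part in Slc29a4 was not tested. Ddc, an enzyme shared by dopamine and serotonin synthesis, had the smallest p among the lower genes, with -0.19 ± 0.136 (adjusted p of 0.698 in edgeR).

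Among receptor kinases, arrestins and RGS proteins, which end receptor signalling, 7 of 14 were higher and 7 lower, with a median of 0.01. Of the 14, 3, or 21.4%, had an unadjusted p under 0.05, beside 9.09% of all genes. Grk5, a receptor kinase, averaged 9.69 CPM without and 19.9 CPM with BT-11, a log2 fold change of 1.01 ± 0.354 (SE, adjusted p of 0.458 in edgeR). BT-11 replicates 2 and 4 held 39.9 and 26.4 CPM of it and all other libraries 7.38 to 12.7 CPM, the pattern of Adra2b, and without them the value was 0.19 ± 0.154. Slc18a2, the vesicular monoamine transporter, was likewise highest in these libraries, at 24.1 and 23.4 CPM against at most 16.0 CPM elsewhere. It was named for that after its values were seen. Of the 79 tested pathway genes, 5, or 6.33%, had these libraries as their 2 highest, beside 4.03% of all genes. Besides Grk5 and Slc18a2 these were Plcb4, Hcn2 and Prkaca, also named after their values were seen. Rgs4, which shortens Gi and Gq signals, averaged 93.5 CPM without and 46.7 CPM with BT-11, with -1.01 ± 0.365 (adjusted p of 0.475 in edgeR). Untreated replicate 5 held 179 CPM of Rgs4, and untreated replicates 1, 3 and 4, at 69.1, 41.1 and 74.1 CPM, lay inside the BT-11 range of 29.9 to 84.0 CPM. Without BT-11 replicates 2 and 4 its value was -0.75 ± 0.427.

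Downstream of the receptors, no gene passed the test in any of the 4 lists. Of 19 G protein subunit genes 9 were higher and 10 lower (median -0.02). Of the 19, 2, or 10.5%, had an unadjusted p under 0.05, beside 9.09% of all genes. These were Gnal, a Gs-like alpha subunit, at 0.46 ± 0.167 (adjusted p of 0.475 in edgeR) and Gng3, a gamma subunit, at -0.34 ± 0.138 (adjusted p of 0.512). BT-11 replicate 2 held 192 CPM of Gnal and the other BT-11 libraries 99.0 to 111 CPM, and without BT-11 replicates 2 and 4 the value was 0.24 ± 0.111. In the alpha-1 arm 8 of 12 phospholipase C and IP3 receptor genes and their partners were higher (median 0.19). Of the 12, 1, or 8.33%, had an unadjusted p under 0.05, beside 9.09% of all genes. The smallest p was that of the cation channel gene Trpc6, at 0.44 ± 0.201 (adjusted p of 0.542 in edgeR). Among the lower ones it was that of the IP3 receptor gene Itpr2, at -0.15 ± 0.197 (adjusted p of 0.850). In the cyclase, protein kinase A and CREB arm that alpha-2 and beta receptors share, 9 of 20 were higher and 11 lower (median -0.0012). Of the 20, 0, or 0%, had an unadjusted p under 0.05, beside 9.09% of all genes. The extremes of this arm by p were the cyclase genes Adcy2, at 0.19 ± 0.0984 (adjusted p of 0.592 in edgeR), and Adcy6, at -0.24 ± 0.131 (adjusted p of 0.608). Among 8 channels that alpha-2 receptors act on, 5 were higher (median 0.06), and 2 of the 8, or 25%, had an unadjusted p under 0.05, beside 9.09% of all genes. Both were higher. Kcnj6, a G protein-gated potassium channel, averaged 454 CPM without and 610 CPM with BT-11, with 0.41 ± 0.136 (adjusted p of 0.448 in edgeR). Untreated replicate 3, at 621 CPM, lay inside the BT-11 range of Kcnj6, 519 to 700 CPM. Kcnj3, another such channel, named after its values were seen, averaged 54.0 and 73.5 CPM, with 0.43 ± 0.177 (adjusted p of 0.512 in edgeR). Untreated replicate 3 and BT-11 replicates 1, 2, 3 and 5 held the most dentate granule cell markers, at 235 to 267 CPM summed. They held 42.0 to 51.9 CPM of Trpc6 and the other libraries 18.0 to 37.8 CPM. For Kcnj6 these ranges were 519 to 700 and 350 to 609 CPM. For Kcnj3 they were 66.0 to 80.8 and 35.8 to 67.9 CPM. This list was picked after the values were seen, and its part in these genes was not tested.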

How the data were processed

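Strand-specific mRNA libraries of total RNA from the left hippocampus were sequenced as single-end reads of 50 bases, per the labels' protocols. Build rn6 and the tools STAR 2.7.9a, bcl2fastq 2.19.1.403, DESeq2 and Partek appear in the submitters' processing notes, with no role stated. How reads were counted, with which strand setting and annotation, is not given in the sources used here. The authors deposited a table of estimated counts per gene model, 83.2% of them whole, and a table of CPM, which equal the deposited counts scaled by the column total plus 1e-04. No gene model in the table overlaps a receptor gene, and all receptor values are whole. Start positions were raised by 1, since length equals end minus start in 511 of 519 models with about the same length and span.

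Counts were summed per symbol, rounded and tested with edgeR 4.0.16 under R 4.3.3, using the robust quasi-likelihood test with TMM and the default filter on low counts. Two-sided p-values were adjusted over the 11771 genes by the Benjamini-Hochberg method. Intervals are 95% intervals of the fit, and intervals and floors (3 counts) cover no amplification error. Log2 CPM used a prior count of 2, correlations 100000 permutations. Alternatives used DESeq2 1.42.0, limma 3.58.1 and other settings. The edgeR step was tested on simulated data. Nothing in the labels pairs the replicate numbers, so the main fit did not use them as pairs. Of the 5 same-numbered pairs, 4 deviated together with a correlation over 0.1, and numbers 5 had 0.042. Fits with a replicate block and with a covariate for numbers 4 and 5 are given below. Replicates of a group differed by more than sampling noise (chi-square per degree of freedom from 4.56 to 32.9).

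Genes were named by a rule: all members, the list gene with the smallest p in each direction, and the 3 genes most like each member with a mean of at least 2 CPM (partners at least 1 CPM, placeholder names left out). Of the genes so named, 3 are not reported here. The members and lists were chosen with earlier results of these data known.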

Additional observations from a re-analysis of the deposited data

Results flagged for a closer look

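The Adra2c level of untreated replicate 3, at 27.2 CPM, stood apart from the other 4 untreated libraries, which held 20.0 to 21.9 CPM. The gap to its nearest neighbour was 0.736 of the range of the group, above Dixon's 95% critical value of 0.71 for 5 samples. It was the single such library among 14 sets of 5 values checked, where chance flags about 1 in 20 groups.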

How the results depend on the processing

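No receptor gene passed 0.05 under any of the 28 alternatives run for each of the 6 tested, by adjusted p or, in the exact permutation test, by its own p (lowest 0.103). The log2 fold changes of Adra1a, Adra1b, Adra1d and Adra2c kept their direction in all 28. That of Adra2a (-0.28) reversed in 2, to 0.044 without untreated replicates 2 and 5 and to 0.036 within replicate numbers 1 to 3, and that of Adrb1 (0.12) in 1, to -0.31 within numbers 4 and 5. The cause was not tested. Leaving out 1 library at a time gave -0.71 to -0.34 for Adra1a, -0.88 to -0.44 for Adra1b, -0.29 to -0.10 for Adra1d, -0.57 to -0.09 for Adra2a, 0.09 to 0.25 for Adra2c, and 0.01 to 0.20 for Adrb1. For Adra2b the difference in mean CPM of 0.485 ran from 0.134 without BT-11 replicate 4 to 0.709 without BT-11 replicate 1. The omission of BT-11 replicates 2 and 4 was chosen after the data were seen. Over all genes, edgeR called 0, with 1070 at an unadjusted p under 0.05. DESeq2 called 36, numbers 4 and 5 alone gave 479, and leaving out 1 library at a time gave 0 to 62, the 62 without untreated replicate 3. With the replicate block edgeR called 0 genes and no receptor call changed, with Adra1b at -0.64 and Adra2c at 0.16. With that block 1320 genes had an unadjusted p under 0.05. A covariate for numbers 4 and 5 in its place gave 0 called genes and 1312 at an unadjusted p under 0.05. No receptor call changed with it, and Adra1a was at -0.50 ± 0.265 (SE). Nothing in the labels pairs the numbers, and a library of the same number was the closest in the other group for untreated replicate 1 alone. Untreated replicates 4 and 5 were closest to BT-11 replicates 5 and 4 in turn. Within groups, replicates 4 and 5 differed least (chi-square per degree of freedom of 7.23 in untreated and 4.56 in BT-11 rats). Whether the numbers share anything else was not settled. Depth limits Adra2b, with 0 to 23 counts per library, and Adra1a and Adra1b, with 8 to 43.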
